A study of Mus musculus with 2 samples.

Results

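The most used splice junctions of adult mouse heart were the 774 junctions that carried at least 5000 reads, out of 362268 junctions in the list deposited for this series. They were chosen on their reads, so read numbers are given here as a description and were not tested. The 774 junctions are 0.214% of the list and hold 14737721 of its 35016870 reads, or 42.1%. The study sequenced poly(A)-selected RNA longer than 200 nucleotides from heart tissue of 8-week-old mice of the inbred strain C57BL/6J. Reads were paired, stranded and 76 nucleotides long. There is 1 group of 2 libraries, numbered 1 and 2 as biological replicates. The labels give mixed-sex littermates, pooled, with 1 donor record shared by both samples, so differences between the libraries may in part be technical. No treatment, mutation or transgene is named.

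A splice junction is the pair of exon ends that are brought together when an intron is cut out of a transcript. The end of the upstream exon marks the donor site, and the start of the downstream exon marks the acceptor site. A sequenced read that crosses the join shows which donor was used with which acceptor, so its count rises with the amount of the spliced RNA. Heart muscle RNA is rich in transcripts of the contractile apparatus and of mitochondrial energy supply, and blood left in the tissue adds the globin transcripts of red blood cells.

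The junction list names no library. It splits the reads of each junction into 2 numbers called R1 and R2, which add up to its total. Over the whole list R1 held 20235685 reads and R2 held 14781185. The sources used here do not say what R1 and R2 stand for, and neither was assigned to a library. Each junction also carries 2 flags, A and C, whose meaning is likewise not given. Flag A was 1 in 746 of the 774 junctions (96.4%) and in 43.1% of the list. Flag C was 1 in 765 (98.8%) and in 62.9%.

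The list is on the mm9 build, and no mm9 gene annotation was used here. Host genes were therefore found by structure. A junction was tied to a gene of the GENCODE M21 annotation when chromosome, strand and intron length were the same, and when the exon between it and a neighbouring junction of the list, and that neighbour's intron, also had the annotated lengths. A gene with only 1 intron has no neighbouring junction, so it could not be tied or become a host. By this rule 731 of the 774 junctions (94.4%) were tied to 1 gene each, 201 genes in all. A further 10 were tied to 2 genes with the same structure. Another 12 joined the donor of 1 gene to the acceptor of a similar gene, 3 joined near copies that could not be named, and for 2, in Srl and Uqcr10, both ends were those of tied junctions of the gene. When a difference of up to 2 bases in exon length was allowed, 7 more were tied, and 9 were left without a host. Coordinates of junctions below are mm9, and all sequences are from GENCODE M21 transcripts.

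The exon ends joined at the most used junction of each of 4 genes are shown first, because they are the sequences that the reads cross. Outside the globins these 4 genes had the highest single junctions, and the other introns of Actc1 also had more reads than the last 3 shown. Lower case marks the last 15 bases of the upstream exon and capitals the first 15 of the downstream exon, 5′ to 3′. All 4 lie within coding sequence.
Actc1 intron 2: cgcccacgtcaccagGGTGTCATGGTGGGT
Atp5b intron 7: atcacctcggtgcagGCTATCTATGTGCCT
Mb intron 1: ggaagtcctcatcggTCTGTTTAAGACTCA
Myl3 intron 2: ctgaacagattgaagAGTTCAAGGAGGCCT
Actc1 encodes cardiac alpha-actin, the main protein of the thin filament. Its intron 2, 1289 nucleotides long on the minus strand of chromosome 2 (chr2:113876350-113877638), had 249559 reads, 145705 in R1 and 103854 in R2. Atp5b encodes the catalytic beta subunit of mitochondrial ATP synthase, and its intron 7 (chr10:127523477-127525376, plus strand) had 117884 reads. Mb encodes myoglobin, the oxygen store of muscle, and its intron 1 (chr15:76848229-76852918, minus strand) had 117802. Myl3 encodes the essential light chain of ventricular myosin, and its intron 2 (chr9:110669011-110669124, plus strand) had 104328.

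Reads were concentrated at the top of the ranking. The single most used junction held 1.84% of all reads in the list, the first 10 held 9.04%, the first 50 held 18.2% and the first 200 held 28.4%. The median of the 774 was 9124.5 reads against 3 over the list. The 15 with the most reads were 9 junctions of the alpha- and beta-globin loci and the 6 introns of Actc1. Just inside the minimum lay introns of Cd36 (5024 reads) and Acaa2 (5015), and just outside lay introns of Des (4999), Csrp3 (4977) and Pam (4970). The minimum therefore cuts a continuous series.

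**Figure D1:**
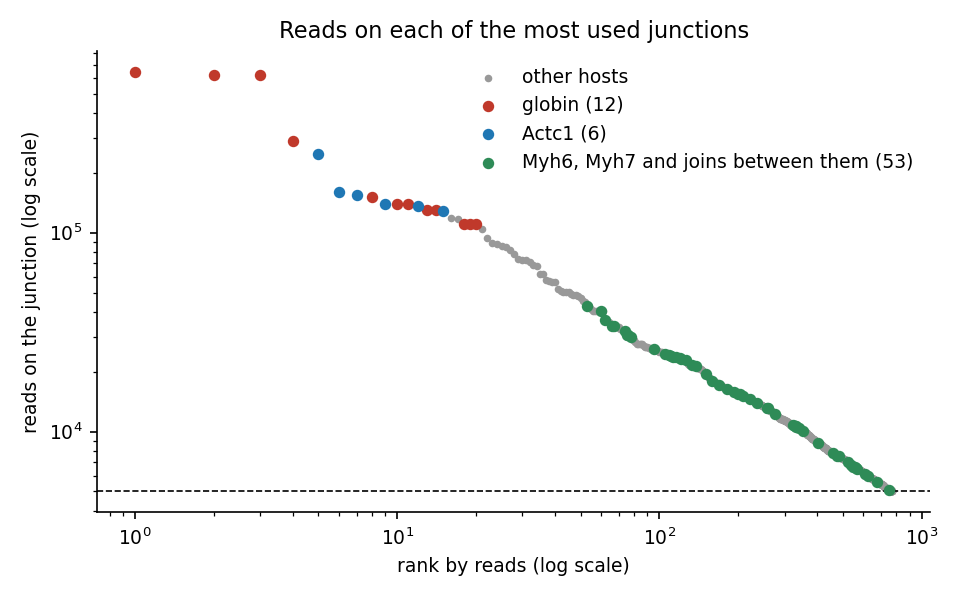
Reads on each of the 774 junctions against its rank, both on log scales, with the minimum of 5000 reads as a dashed line. Points are junctions; globin junctions (red) and the 6 introns of Actc1 (blue) fill the 15 highest ranks, while the 53 junctions of Myh6, Myh7 and their joins (green) lie at or below 42867 reads.

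Introns of the most used junctions were short. Their median length was 693.5 nucleotides, with the central 50% between 234 and 1667.5, against a median of 1977 over the list. Length fell with each step in reads, from a median of 12345 for the 137659 junctions with 1 read, to 972 at 100 to 999 reads and 835.5 at 1000 to 4999 reads. The junctions with 1 read differ in kind as well as in length, since 6.24% of them were tied to an annotated gene, against 97.5% at 1000 to 4999 reads and 95.7% of the 774. Among tied junctions alone the medians were 1693 at 1 read, 955 at 100 to 999 reads, 825 at 1000 to 4999 reads and 654 at 5000 or more. The difference in length thus remained, at a smaller size, within annotated structures. Inside the 200 host genes that could be followed in the gene tables, introns at or above the minimum had a median of 654 nucleotides and the other introns found in the list 721.

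**Figure D2:**
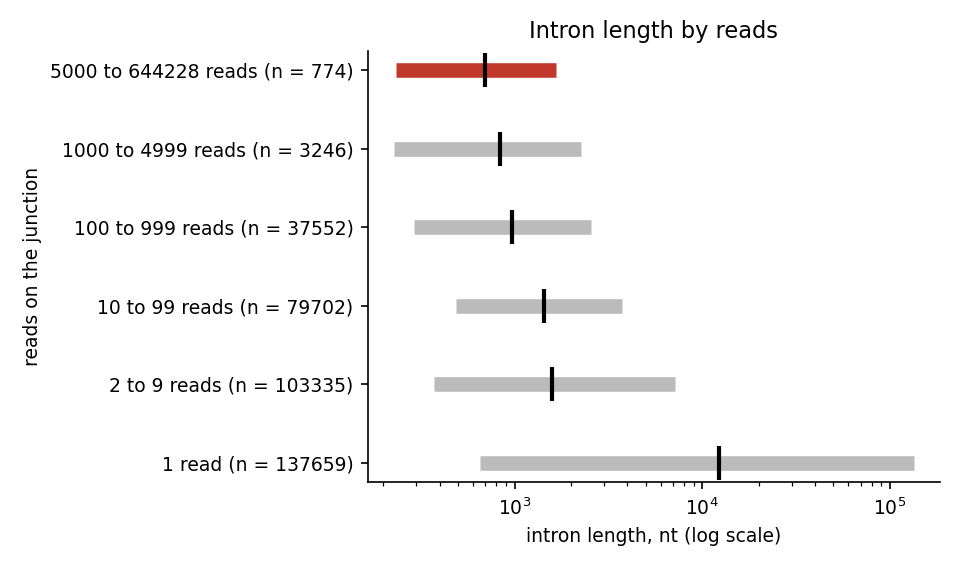
Intron length in nucleotides on a log scale for junctions grouped by their reads, with the number of junctions in each group. Bars span the central 50% and ticks mark medians, which fall from 12345 nucleotides at 1 read to 693.5 at 5000 reads or more (red).

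The shortest intron, 70 nucleotides, was intron 5 of Ndufs7 (chr10:79717765-79717834), which encodes a core subunit of respiratory complex I, and it had 14174 reads. Next came introns of Crip2 (73 nucleotides, 10177 reads), Acta1 (76, 10354), Cyc1 (77, 14194), Ech1 (77, 12456) and Tecr (77, 5923). Cyc1, Ech1 and Tecr tie in length. Acta1 encodes skeletal alpha-actin and Cyc1 the cytochrome c1 of complex III.

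The longest of all, 142718 nucleotides on chromosome 12 (chr12:34505011-34647728, minus strand), had 5296 reads, 2954 in R1 and 2342 in R2, was tied to no gene, and had both flags at 0. It held 99.9% of the reads at its donor, and its share at its acceptor was higher still. Intron 1 of Fhl2, a LIM-domain protein of the sarcomere, followed with 43396 nucleotides and 5573 reads. Intron 2 of Pdlim5, which encodes a Z-disc protein, had 38827 nucleotides and 10587 reads, and intron 2 of Ndufs4, of complex I, had 34418 and 6149. The fifth was a join between Myh7 and Myh6 of 29444 nucleotides, described below.

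Of the 774 junctions 381 lay on the plus strand and 393 on the minus strand, and 50.5% of the list was on plus. Chromosome 14 held the most, 90 junctions, or 0.599 per 100 of its listed junctions, and 37 of them were introns of Myh6. Another 11 were joins between Myh7 and Myh6 and 5 were introns of Myh7, both described below. Chromosome 2 held 83, led by Mybpc3 with 23, and chromosome 7 held 82. Both held more than chromosome 14 would without those joins and Myh7 introns. Chromosome 10 followed chromosome 14 in density with 0.387 per 100. Chromosome 16 had 7 junctions, or 0.0654 per 100, the lowest density of the chromosomes that had any. By reads chromosome 11, with the alpha-globin locus, came first with 19.9% of the reads of the 774. Chromosome Y (123 listed junctions) and chromosome M (4465) had none.

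On a reference transcript of the host gene, 739 junctions could be placed. Of these 698 (94.5%) lay between coding exons, 38 in the 5′ UTR and 3 in the 3′ UTR. In the coding sequence 352 introns fell between codons, 233 after the first base of a codon and 113 after the second. First introns made up 109 of the placed junctions and had a median length of 1393 nucleotides, against 541 for later introns. Contigs of the same build, stretches of covered genome with a deposited level, touched both flanks of 769 junctions (99.4%). The median level was 138 at the upstream and 154 at the downstream flank, and 0.212 over all contigs.

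Globin junctions led the ranking, and most of their reads were in R1. Alpha-globin and beta-globin are the protein chains of haemoglobin in red blood cells, and each is encoded in the mouse by a pair of nearly identical neighbouring genes, Hba-a1 and Hba-a2, and Hbb-bs and Hbb-bt. Their exon ends are shown with 30 bases on each side, since the copies cannot be told apart there.
Hba-a1 intron 1: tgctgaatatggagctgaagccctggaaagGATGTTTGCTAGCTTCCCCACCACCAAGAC
Hba-a1 intron 2: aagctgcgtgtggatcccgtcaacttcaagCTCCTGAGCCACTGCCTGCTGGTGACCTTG
Hbb-bs intron 1: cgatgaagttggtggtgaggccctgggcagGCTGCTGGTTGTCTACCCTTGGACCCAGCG
Hbb-bs intron 2: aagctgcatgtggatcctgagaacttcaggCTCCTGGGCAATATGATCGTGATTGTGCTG
The 60 bases printed for each are identical in Hba-a2 and Hbb-bt. At intron 2 of the alpha-globins the identical run reached 335 bases before the join and 80 after it, and at intron 1 it reached 130 and 285. For the beta-globins the runs were 106 and 324 at intron 1, and 329 and 101 at intron 2.

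In the alpha-globin locus 3 junctions shared each intron. Intron 2 of the upstream copy (chr11:32184129-32184262) had 644228 reads, intron 2 of the downstream copy (chr11:32196946-32197079) had 620926, and the join of the upstream donor to the downstream acceptor, 12951 nucleotides long, had 621137. For intron 1 the numbers were 110360, 110505 and 110331. All 3 numbers of a set were nearly equal, and intron 2 had over 5 times the reads of intron 1. In both joins between the copies flag A was 0, and in the 4 introns within a copy it was 1.

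The beta-globin locus gave 6 more junctions. Intron 1 had 129525 reads in Hbb-bs (113 nucleotides), 150487 in Hbb-bt (116 nucleotides) and 129517 on the join between them, 14122 nucleotides long. Intron 2 had 287416 reads at the position next to intron 1 of Hbb-bs, 138587 in Hbb-bt, and 138592 on the join, 14663 nucleotides long. Within Hbb-bt the introns differed little, while at the other copy intron 2 had more than 2 times the reads of intron 1. All 12 globin junctions together held 3191611 reads, 9.11% of the list. The sources used here do not say how reads that fit both copies were placed. Whether 1 read was counted on more than 1 of these junctions was not tested, so these sums may not be of distinct reads.

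Of the globin reads 93.6% were in R1, with a range of 90.3% to 94.7% over the 12 junctions. Without these junctions R1 held 54.2% of the reads of the list, and with them 57.8%. In the gene tables all 4 globin genes were higher in replicate 2, from a summed 7571 TPM (transcript level per length, scaled to a fixed total per library) in replicate 1 to 94640 in replicate 2. Hbb-bs stood at 2616.51 and 28477.7 TPM and Hbb-bt at 374.9 and 4715.21. In whole tissue, fewer red blood cells and less globin RNA in each cannot be told apart.

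Only 2 junctions went further towards R1. Intron 1 of Bpifa1 (chr2:153968663-153969490) had 7223 reads in R1 and 0 in R2. Intron 1 of Scgb1a1 had 6536 in R1 and 2 in R2.
Scgb1a1 intron 1: tctgctgcagctcagCTTCTTCGGACATCT
Both genes encode secreted proteins of the airway lining. Their TPM was 0.09 and 0.18 in replicate 1 and 349.71 and 1566.73 in replicate 2. All 4 lung epithelium markers were higher in replicate 2, with a summed 0.32 TPM in replicate 1 and 2152 in replicate 2, and Scgb3a2 was at 0 in replicate 1. The part of blood or airway RNA in the levels of other junctions was not tested.

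At the other end, intron 8 of Cd36, the fatty acid carrier of the cell surface, had 27.9% of its 5024 reads in R1. Next came intron 2 of Sdhb (29.1%), a subunit of respiratory complex II, intron 10 of Atp2a2 (30.8%), which encodes the calcium pump of the sarcoplasmic reticulum, intron 8 of Tpm1 (32.9%), which encodes alpha-tropomyosin, and intron 3 of Uqcrc2 (35.2%), of complex III. Over the 774 junctions the median was 55.2% and the central 50% lay between 49.5% and 61.8%. Introns of 1 gene could lie far apart: in Tnni3, cardiac troponin I, they ran from 45.2% to 83.8%.

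Across the 200 host genes found in the gene tables, the log2 ratio of R1 to R2 on the gene's junctions went with the log2 ratio of replicate 2 to replicate 1 in CPM, the count scaled to library total (Pearson r = 0.963, Spearman rho = 0.749). Without Bpifa1, Scgb1a1 and the beta-globins r was 0.724 over 196 genes. These are relations across genes, which share both libraries and are not independent replicates. Neither R1 nor R2 was given a library from this.

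**Figure D3:**
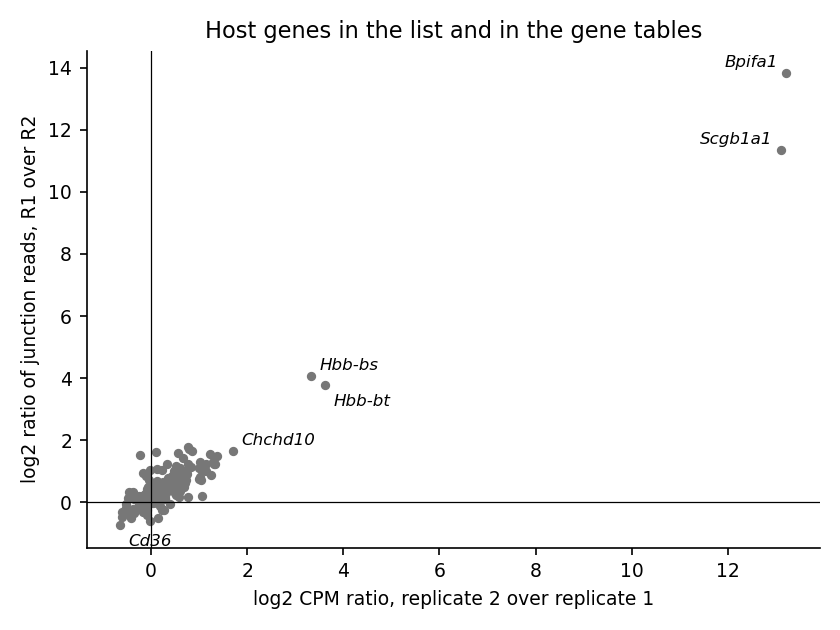
Each point is 1 of 200 host genes: the log2 ratio of CPM in replicate 2 over replicate 1 (horizontal) and the log2 ratio of R1 over R2 reads on its most used junctions, with 0.5 added to each (vertical). Bpifa1 and Scgb1a1 lie apart at the top right, the beta-globins between them and the main cloud, and Cd36 at the lower left.

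Host genes were among the most abundant of the tissue. Their median was 369 TPM in replicate 1 and 470 in replicate 2, the median of each gene's mean over both libraries was 446, and 192 of the 200 reached 100 TPM. The median of the 11824 genes with a mean of at least 1 TPM was 6.97. Of the 50 spliced genes with the most estimated counts 47 were hosts, of the first 100 it was 87, and of the first 200 it was 144. Because the rule used reads from the same RNA, this is a description of the choice. A 2-fold higher level in replicate 2, on log2(TPM + 0.1), was seen for 19 of the 200 hosts (9.5%), where 6.63% of all genes of at least 1 TPM were called, and a 2-fold lower level for 0, where 1.13% were called. The median log2 ratio was 0.26 for hosts and 0.16 for all these genes. With 1 library on each side these differences have no test. Hosts were chosen on R1 plus R2 reads, so a gene high on 1 side alone could enter, as Bpifa1 and Scgb1a1 did. The share of hosts called is therefore not independent of the choice. The 19 hosts included, besides the beta-globins and airway genes, Chchd10 (307.13 and 1029.06 TPM), a mitochondrial intermembrane protein, Acta1 (357.64 and 907.43) and Tnni3 (4631.41 and 11029.9).

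All 7 markers of heart muscle cells were hosts, with 28570 and 33470 TPM summed in replicates 1 and 2. Of the 7 genes 3 were higher in replicate 2 (Tnni3, Tnnt2 and Myl2), and Myh6, Actc1, Ryr2 and Atp2a2 were lower. Tnni3 went from 4631.41 to 11029.9 TPM, while Actc1 went from 14524.7 to 13048.8. Of skeletal muscle markers Myh4 was at 0 in both libraries and Myh1 at 0.01 and 0, whereas Ckm, the muscle creatine kinase that heart also uses, stood at 1594.53 and 2525.19. Endothelial markers summed to 116.1 and 121.5 TPM and none was a host. Of the fibroblast markers Dcn alone was a host.

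Thick filament genes, which build the motor side of the sarcomere, hosted 98 of the junctions from 8 of 12 measured genes, with 13.2% of the reads of the 774. Of these 11 were joins between Myh7 and Myh6. Myl3 had 6 junctions of 45326 to 104328 reads and Myl2, the ventricular regulatory light chain, 6 of 21535 to 68458. The atrial light chains were lower, with 5 junctions of 5795 to 14731 reads in Myl4 and 4 of 5945 to 8233 in Myl7. Ttn, which encodes the giant spring protein titin, had 1 junction at the minimum, its intron 190 of 191 with 5660 reads, and a median of 187 over the 188 introns found.

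Thin filament genes hosted 42 junctions in 6 of 10 genes, with 1770911 reads. The introns of Actc1 had, from 1 to 6, 129233, 249559, 154607, 160693, 139611 and 136853 reads, a ratio of 1.93 between the highest and the lowest. Those of Tpm1 ranged from 12147 to 82070 and those of Tnnc1, cardiac troponin C, from 11581 to 61986. Acta1 had 6 junctions of 5138 to 12666 reads.

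Calcium handling genes hosted 22 junctions in 6 of 15 genes. Atp2a2 had 15 tied exactly and 1 more by the looser rule, and Pln, its inhibitor phospholamban, had 1 with 31913 reads. Ryr2, the calcium release channel, had 1 junction of 6484 reads and a median of 388 over its 103 introns found. The Z-disc and cytoskeleton list gave 22 junctions in 8 of 15 genes, among them 7 in Actn2 (5136 to 10544 reads), the alpha-actinin that anchors thin filaments.

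Oxidative phosphorylation had the most junctions of any list, 150 in 48 of 98 nuclear genes, with 15.6% of the reads of the 774, against 21.7% for the globins. Atp5a1 (11 of 11 introns) and Atp5b (9 of 9) encode the alpha and beta subunits of ATP synthase. Cox6a2, the muscle form of a cytochrome oxidase subunit, had 88196 reads on intron 2 and 42615 on the other. The tricarboxylic acid cycle list, which also holds cytosolic Mdh1 and the aminotransferases Got1 and Got2, gave 81 junctions in 13 of 16 genes. That was the highest share of hosts of any list over 10 genes. Ogdh, of the 2-oxoglutarate dehydrogenase complex, had 14, and Mdh1 8, of up to 86102 reads.

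Fatty acid genes gave 41 junctions in 10 of 22 genes, led by Ech1 with 9 of 9 introns (5531 to 30142 reads). Glycolysis and pyruvate gave 30 in 10 of 17 genes, and energy transfer and oxygen 29 in 7 of 11, including all 9 introns of Ckmt2, the mitochondrial creatine kinase. The translation list contributed 18 junctions in 7 of 155 genes, and chaperones 5 in 3 of 60. Gapdh had 1 junction, of 36064 reads, and a median of 62.5 over its 6 introns found. Nppa, the atrial natriuretic peptide, had 2 of 24230 and 47128. Outside all lists lay 196 junctions with 11.9% of the reads, led by Ndrg2 with 15, Pygm, the muscle glycogen phosphorylase, with 12, and Psap, the saposin precursor, with 10.

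Along a gene the reads varied widely, although every intron of a transcript is removed once. Of 1887 introns in the reference transcripts of the 200 hosts, 1848 were in the list and 731 reached the minimum. In 39 hosts every intron did so, 16 of them with 5 or more introns, from Actc1 with a ratio of 1.93 between highest and lowest to Atp5b with 17.3. In the 125 hosts with at least 6 introns, the minimum was reached by 32.0% of introns in the 5′ part of the gene, 33.8% in the middle and 39.3% in the 3′ part. These parts differed in intron length too, with medians of 1125.5, 599 and 496.5 nucleotides.

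Myh6, the alpha-myosin heavy chain of adult mouse ventricle, had the most, 37 of its 38 introns, with 3479 reads at intron 22 and 42867 at intron 10. Mybpc3, the myosin-binding protein C of heart, had 23 of 34. Its median was 4845 reads in the 5′ part and 12119.5 in the 3′ part. For Atp2a2 these medians were 4745.5 and 40190 and for Ogdh 3687 and 10128. In Psap the order was the opposite, with 11666.5 and 5756. Ndrg2, Gsn, the actin-severing gelsolin, with 14, Pygm, Atp5a1 and Tnnt2, cardiac troponin T, with 10, were also among the 11 hosts with at least 10 junctions, and Tpm1, Atp5b, Uqcrc1, Ckmt2, Ech1 and Idh2 had 9 each. In Atp5a1 the highest were introns 6 and 7, with 88743 and 84856 reads, and the lowest intron 1, with 7974.

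**Figure D4:**
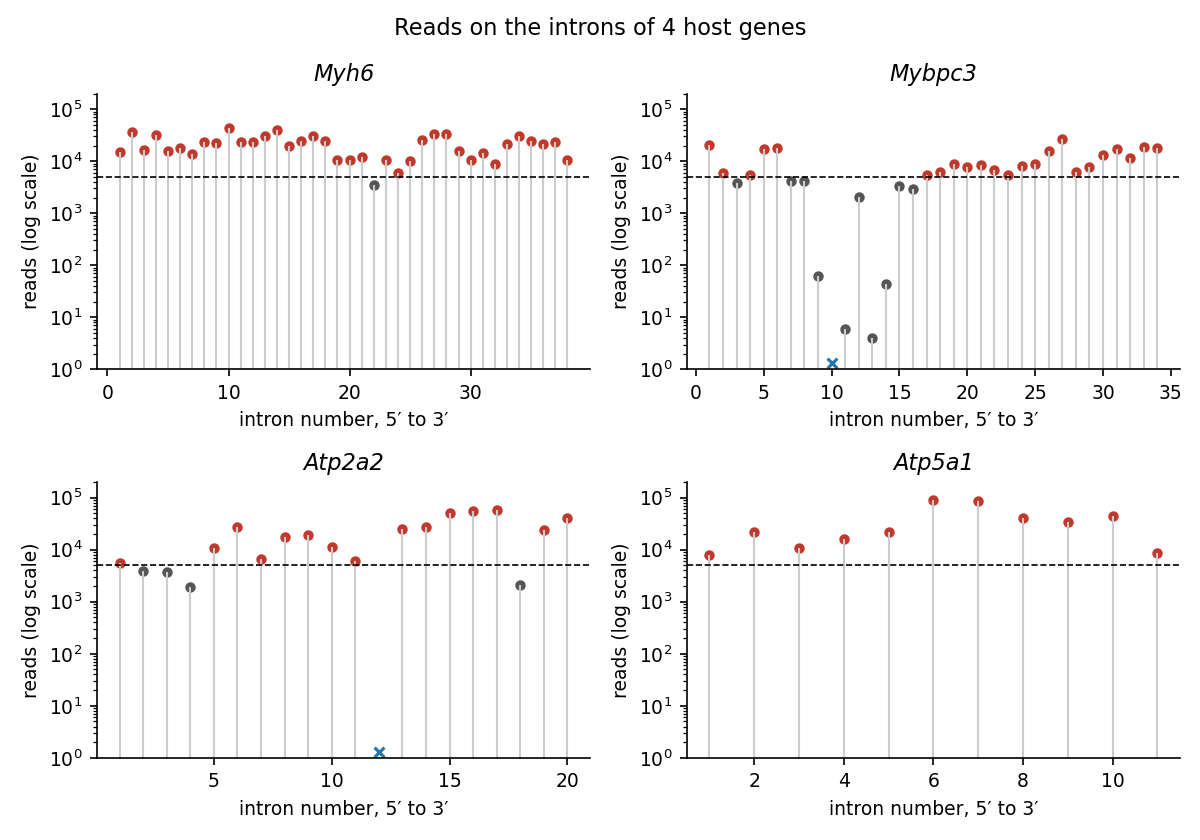
Reads (log scale) on each intron of 4 host genes from 5′ to 3′. Red points reach the minimum of 5000 reads (dashed line), grey points do not, and crosses mark introns that were not found in the list; Myh6 stays above the line at 37 of 38 introns, and Mybpc3 falls to between 4 and 63 reads beside its 3 very short exons.

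The lowest introns of Mybpc3 lay beside very short exons, while others below the minimum, such as intron 12 with 2031 reads, did not. Introns 9, 11, 13 and 14 had 63, 6, 4 and 43 reads, intron 10 was not in the list, and the exons they border are 3, 12 and 3 bases long. Across that last exon, exon 14, 2278 reads lay on 1 junction (chr2:90964176-90964537) that runs from the donor of intron 13 to a point 3 bases before the acceptor of intron 14, so that it covers 362 of 365 nucleotides. In Psap, whose exon 8 has 9 bases, 4167 reads lay on a junction of 3086 nucleotides inside the whole span of 3095, while intron 8 had 5. In Tnnt2, 873 reads skipped the 9-base exon 11 exactly and 691 used its downstream intron. Over all hosts 19 introns bordered an inner exon of at most 15 bases, and 1 of them (5.26%), intron 2 of Tnni3 with 12190 reads, reached the minimum. Of the 19, 13 were in the list, and the median over all 19 was 8 reads, with those not in the list taken as 0. Beside exons of 16 to 30 bases it was 11 of 20 (55%), with a median of 6605.5 reads, and beside exons of 61 to 120 bases 38.3%. Short exons were examined after the reads of Mybpc3 had been seen.

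Most donors and acceptors of these junctions had 1 main partner by share of reads. The junctions were chosen on the reads that make up these shares, and the same shares were not computed over the whole list. A junction held at least 95% of the reads at its donor in 736 cases, at its acceptor in 725 and at both in 703 (90.8%). Of the 71 that fell below at an end, 47 lay in the globin, Myh6, Myh7 and Myl12 loci and 24 elsewhere. The 10 lowest shares, 21.6% to 32.5%, were 7 joins between Myh7 and Myh6, 1 intron of Myh7, 1 of Ndrg2 and 1 join between beta-globin copies. In Myl12a and Myl12b, neighbouring genes for regulatory light chains, 7881 and 7488 reads shared a donor, and 5401 and 6978 shared an acceptor.

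The lowest share outside these loci was in Ndrg2, an N-myc downstream-regulated gene. An acceptor (position 52531222 of chromosome 14, minus strand) was reached from a donor 1776 nucleotides away in 20630 reads and from one 2377 nucleotides away in 7491, so the latter junction held 26.4%. In Fxyd1, phospholemman, a junction of 394 nucleotides had 9078 reads and a competing one of 1180 had 3006. In Acsl1, which activates fatty acids, 5440 reads competed with 1479 on a junction of 21569 nucleotides. Atp5g3, subunit c of ATP synthase, had 10829 reads on a junction of 191 nucleotides and 2533 on one of 181.

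Among those 24, the leading competitor differed from the junction by at most 20 nucleotides in 9 cases. In 5 of them the difference was exactly 3, in Srl (6587 against 675 reads), Cd36 (5633 against 726), Psap (8666 against 801), Aes (14310 against 1208) and Tnnt2 (13684 against 787). The shorter intron had more reads in each of these 5.

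Joins between Myh7 and Myh6 were the main exception to the tie of a junction to 1 gene. Myh7 encodes the beta-myosin heavy chain, low in the adult mouse ventricle, and lies just upstream of Myh6 on the minus strand of chromosome 14. There were 11 such joins among the 774, each from a Myh7 donor to a Myh6 acceptor, of 26706 to 29444 nucleotides, with 5093 to 17144 reads, and with flag A at 0 and flag C at 1. They are set beside the exon ends of both genes, 30 bases on each side. The first pair has a join between the genes and few reads on Myh7 itself, the second has both, and the last has neither.
Myh6 intron 26: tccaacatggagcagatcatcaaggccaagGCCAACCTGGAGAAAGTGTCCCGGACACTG
Myh7 intron 28: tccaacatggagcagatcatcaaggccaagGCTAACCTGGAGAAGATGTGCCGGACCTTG
Myh6 intron 13: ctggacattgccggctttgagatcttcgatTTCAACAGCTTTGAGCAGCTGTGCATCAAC
Myh7 intron 15: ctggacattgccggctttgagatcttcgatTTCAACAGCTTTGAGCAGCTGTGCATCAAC
Myh6 intron 7: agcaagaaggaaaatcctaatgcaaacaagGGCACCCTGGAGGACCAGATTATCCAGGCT
Myh7 intron 8: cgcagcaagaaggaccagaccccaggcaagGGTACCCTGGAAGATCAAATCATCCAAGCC
In the first pair 63 bases before the join are identical and 2 after it. The join had 17144 reads, Myh6 25909 and Myh7 113. In the second pair the runs are 75 and 117 bases, and the reads were 13077 on the join, 30459 in Myh6 and 13128 in Myh7. In the last pair the runs are 4 and 2 bases, with 0, 13976 and 65 reads.

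The 38 introns of Myh6 and 40 of Myh7 gave 35 pairs of corresponding introns, matched by sequence on both sides of the join. All 11 joins of at least 5000 reads fell on pairs with at least 30 identical bases before the join, from 30 to 173. The other 24 pairs had at most 27, with a median of 5, and their joins had a median of 20.5 reads and at most 1982. After the join the runs overlapped, from 0 to 135 in the 11 and from 0 to 232 in the 24. The groups thus did not overlap in identical bases before the join. This was looked at after the joins had been seen, and the sources used here do not say how reads that fit both genes were placed.

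Myh7 itself had 5 junctions of at least 5000 reads, introns 15, 20, 32, 36 and 39, with 13128, 6659, 6141, 6472 and 6768. Its other paired introns had 3 to 551 reads, apart from intron 6 with 4623, whose pair has runs of 82 and 43. In the 5 pairs at least 38 bases before and 35 after the join were identical to Myh6. The joins at the same pairs had 13077, 6627, 6539, 15515 and 6999 reads. In the gene tables Myh7 had 4.94 and 8.61 TPM, the lowest of all hosts, and Myh6 had 1776.34 and 1685.49. The part of reads from Myh6 RNA in these junctions was not tested.

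**Figure D5:**
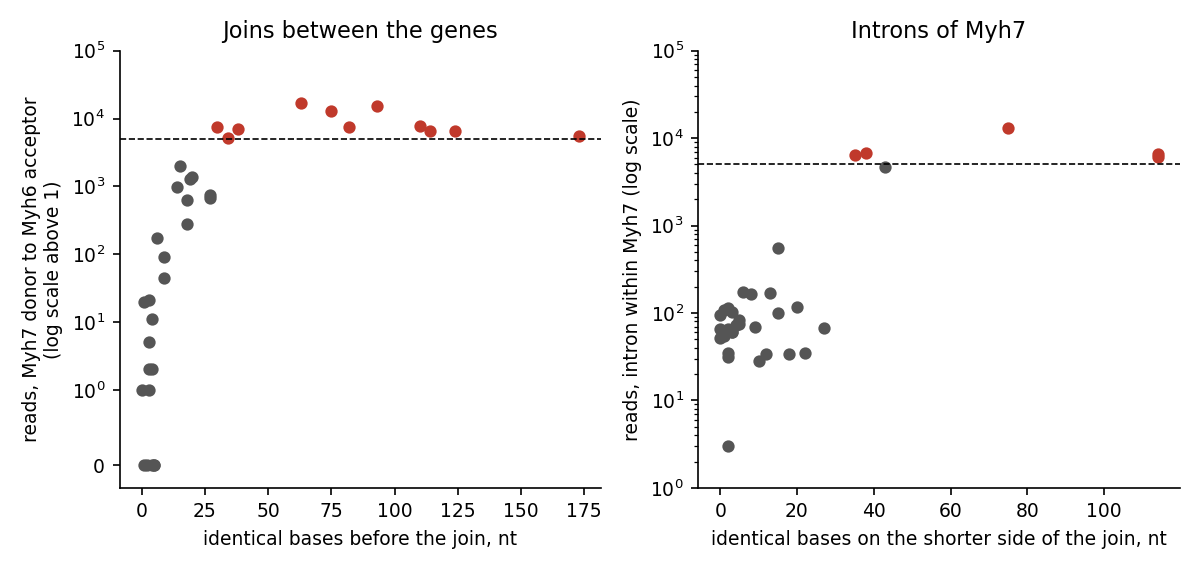
For 35 pairs of corresponding introns: reads on the join of the Myh7 donor to the Myh6 acceptor against identical bases before the join (left, log scale above 1 read), and reads on the intron within Myh7 against identical bases on the shorter side of the join (right, log scale). Red points reach 5000 reads (dashed line); on the left all 11 have 30 or more identical bases, and on the right the 5 red points have 35 or more.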

How the data were processed

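Poly(A) RNA from mouse heart tissue was sequenced as 2 libraries, which form 1 group. The junction list (mm9 build, per the notes that accompany the tables) holds a deposited whole-number count of reads per junction, equal to R1 plus R2 in its name, and a deposited significance fraction from 0 to 1. The contig list holds a deposited signal, a level per contig. The gene tables (mm10 build, GENCODE M4 per those notes) hold the authors' expected counts, TPM and FPKM, per the file headers. The sources used here do not name the aligner, the junction caller or the quantifier. Values of the transcript tables, deposited as TPM, were used only to choose a reference transcript between equals.

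Intron length is end minus start, and printed positions count from 1. Structural ties used exons of up to 20000 bases. The rule was tried on annotated introns moved by a fixed offset per chromosome, among junctions of random length. That trial held no length changes between builds and no joins between similar genes, so it cannot show how the rule handles those. Where intron length alone was unique (141 junctions tied by both rules), all 141 named the same gene. This outcome was fixed in advance, since both rules use the same intron length in the same annotation, and it is no check of the ties. The reference transcript of a gene is the one with the most of the 774 junctions, then the most reads, and every intron was followed along it by lengths. Myh6 and Myh7 introns were paired in order by identity in 60 bases on each side. The log2 fold between libraries used TPM + 0.1 and genes of mean TPM at least 1. Gene totals were 56516025 and 61827347 estimated counts. CPM came from the expected counts, rounded for the TMM factors of edgeR 4.0.16 (R 4.3.3). Python 3.11.15, numpy 2.4.6, pandas 2.3.3 and matplotlib 3.10.9 were used. No p-value was computed.

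The junctions, gene lists and rules were chosen with earlier results of these data known. Named were the 15 junctions with the most reads, the 12 hosts with the most junctions, the 5 longest and 5 shortest introns, 3 on each side of the minimum, the 5 highest and 5 lowest R1 shares, the 10 lowest shares at a donor or acceptor, and hosts of the lists. A few items that these rules name are not reported here. Short exons, differences of 3 bases, the pairing of Myh6 and Myh7, the looser tie and other named junctions were chosen after their values were seen. Splice site bases were not analysed here, since no mm9 genome was used. Alternatives are given in the closing section.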

Additional observations from a re-analysis of the deposited data

How the results depend on the processing

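No paired analysis was possible because there is 1 group of 2 libraries. The count of 774 junctions became 1499 at a minimum of 2500 reads and 357 at 10000, and lay between 679 and 839 with R2 or R1 alone at 2500. Their share of reads, 42.1%, became 49.3% and 34.0% at those minima, 47.1% with R1 and 35.4% with R2 alone, and 42.7% with a total over junctions of at least 10 reads or of significance fraction at most 0.1. It became 36.3% without globin junctions and 40.2% without joins between genes or copies, both chosen after seeing the data. The median intron length, 693.5, became 654 weighted by reads, 732 at 2500 reads, 654 at 10000 reads and, chosen after seeing the data, 660 without those joins. A unique intron length alone tied 146 junctions in place of 731, and neighbours on both sides tied 524. At 99% in place of 95%, 665 in place of 703 junctions were nearly sole users of both ends, and 726 without joins between genes or copies as competitors. The median host level was 446 TPM, 564 in CPM, and between 369 and 470 with 1 library left out. At 1.5-fold 51 hosts were higher in replicate 2 and 3 lower (all genes: 20.1% and 5.36%), and at 3-fold 5 were higher (2.15%). With TMM-scaled CPM 13 were higher (4.03%), and that scaling moved the median log2 ratio of all genes by 0.19. With CPM, without the filter, with a pseudocount of 1 and without the beta-globins, Bpifa1 and Scgb1a1, 15 to 19 were higher and 0 lower. Over all genes 4.17% to 6.63% were higher and 0.651% to 1.4% lower at these settings. Counts of reads are not counts of molecules, and the list gives no replicate spread per junction.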

Other observations

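In a comparison chosen after the data were seen, some genes with many estimated counts hosted no tied junction of at least 5000 reads. The 12 spliced genes of this kind with the most counts were led by Lars2, the mitochondrial leucyl-tRNA synthetase, with 118795 and 112210 estimated counts and 209 reads on its most used junction. Malat1, a long nuclear RNA, had 137191 and 79283 counts and no tied junction. Pde4dip, a large anchoring protein, had 69485 and 73529 counts over 47 tied junctions of at most 4580 reads. Hadhb, the beta subunit of the mitochondrial trifunctional protein, had 65068 and 58353 counts and at most 2319 reads on a junction.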
